A study of Mus musculus with 26 samples.

Results

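The genes described here encode the SR proteins, the hnRNP proteins, the SF3A and SF3B complexes and U2AF, and they were examined for the histone mark H3K4me3. They were chosen by symbol alone, as every protein-coding gene of the mouse annotation whose name begins with Srsf and a digit, Hnrnp, Sf3a or Sf3b and a digit, or U2af. The rule found 44 of 21887 protein-coding genes: 11 SR protein genes, 21 hnRNP genes, 3 SF3A genes, 6 SF3B genes and 3 U2AF genes. No measured value enters this rule, though it was set with earlier results of these data known.

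Most introns are removed by the spliceosome, which assembles on each intron from small nuclear ribonucleoproteins. U2AF binds the 3′ splice site, and SF3A and SF3B belong to the U2 particle that then settles on the branch point. SR proteins mostly bind exon sequences and favour the use of nearby splice sites, while hnRNP proteins coat nascent RNA and often silence exons, so the balance of both shapes alternative splicing, including that of lymphocyte surface receptors. H3K4me3 marks the start regions of active and poised genes, and at some highly used genes it spreads into a broad domain.

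The series compared Ebf1-/- mouse progenitors, which lack the transcription factor that specifies B cells, with cells derived from them. Early-B cells carry the same Ebf1 deletion and received EBF1 back as the fusion EBF1.ER from the vector MigR1. They were kept for 2 days on OP9, a stromal cell line, with 4-O-Hydroxy-tamoxifen, which switches the fusion on, and the cytokines IL-7, SCF and FLT3-L. The labels describe no culture for the progenitors, so EBF1, the inducer, the stroma and the cytokines cannot be told apart between the groups. Chromatin was precipitated with the H3K4me3 antibody ab8580 in 2 samples per group, out of 26 samples in the series. For each group 1 peak list was analysed, so there was no spread between replicates, no test and no p-value for any difference between the lists.

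The Early-B list holds 48054 peaks over 83.3 Mb, with a median width of 1164 bp. The progenitor list holds 31414 peaks over 56.0 Mb, with a median width of 1231 bp, and read depth behind the lists is unknown. As a check of the labels, 5 of 10 B lineage markers, among them Blnk, had a peak in Early-B alone and the other 5 had one in both lists. Of 8 T lineage markers, 5 had a peak in both lists, 1 in Early-B alone (Cd3g, weak with a −log10 p of 1.29) and 2 in neither. Of 6 myeloid markers 4 had no peak, 1 had one in both lists and 1 in progenitors alone (Mpo, −log10 p 7.23). Of 6 stem and progenitor markers 5 had a peak in both lists and 1 in progenitors alone (Hlf, −log10 p 5.36). Of 8 stromal markers, 4 had a peak in both lists and 4 (Sparc, Postn, Lox and Col3a1) in Early-B alone. Among all protein-coding genes, 61.0% had a peak in both lists and 29.0% in neither. The strongest stromal peaks ran from a pileup of 10.0 to 53.01 in Early-B and from 11.96 to 55.31 in progenitors, where pileup is the authors' read coverage of a peak. The part of stromal cells in the values below was not tested.

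Promoter sequences, from 250 bases before to 50 bases after the start site, come from RefSeq for GRCm38.p6, the assembly of mm10. They matched 39 of the 44 genes, with 53 start sites. The 5 shown carry the contrasts in the results. Srsf7 had the highest progenitor pileup among the 44 genes. Srsf10 had a broad peak at its start and another just past its 3′ end. The Early-B peak of Hnrnpl ran over nearly its whole length, and the progenitor peaks did not. Srsf12 was the only gene with no peak, and Hnrnpa1l2-ps2 the only gene with a weak one. Each sequence is written 5′ to 3′ in the direction of transcription. Capitals mark CpG dinucleotides, the sites that are clustered in CpG island promoters.
Srsf7, chr17:80207256-80207555, minus strand: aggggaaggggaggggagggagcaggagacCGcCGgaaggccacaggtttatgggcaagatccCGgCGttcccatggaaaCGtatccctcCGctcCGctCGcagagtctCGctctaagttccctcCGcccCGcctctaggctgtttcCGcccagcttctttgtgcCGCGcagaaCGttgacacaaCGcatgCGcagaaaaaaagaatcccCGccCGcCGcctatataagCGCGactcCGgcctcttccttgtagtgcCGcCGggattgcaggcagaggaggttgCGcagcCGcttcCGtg
Srsf10, chr4:135855821-135856120, plus strand: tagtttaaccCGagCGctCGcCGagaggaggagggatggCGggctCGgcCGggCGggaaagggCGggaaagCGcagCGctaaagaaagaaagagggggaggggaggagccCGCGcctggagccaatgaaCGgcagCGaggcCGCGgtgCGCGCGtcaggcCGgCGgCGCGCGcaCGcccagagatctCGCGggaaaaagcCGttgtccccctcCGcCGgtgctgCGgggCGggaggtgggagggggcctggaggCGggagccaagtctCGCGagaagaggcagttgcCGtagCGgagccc
Hnrnpl, chr7:28810640-28810939, plus strand: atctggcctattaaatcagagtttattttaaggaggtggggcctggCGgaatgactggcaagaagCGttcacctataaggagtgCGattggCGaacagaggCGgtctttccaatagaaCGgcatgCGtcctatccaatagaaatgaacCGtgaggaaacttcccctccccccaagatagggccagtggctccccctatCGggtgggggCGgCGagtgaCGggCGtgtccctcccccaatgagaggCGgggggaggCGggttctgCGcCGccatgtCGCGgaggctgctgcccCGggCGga
Srsf12, chr4:33209022-33209321, plus strand: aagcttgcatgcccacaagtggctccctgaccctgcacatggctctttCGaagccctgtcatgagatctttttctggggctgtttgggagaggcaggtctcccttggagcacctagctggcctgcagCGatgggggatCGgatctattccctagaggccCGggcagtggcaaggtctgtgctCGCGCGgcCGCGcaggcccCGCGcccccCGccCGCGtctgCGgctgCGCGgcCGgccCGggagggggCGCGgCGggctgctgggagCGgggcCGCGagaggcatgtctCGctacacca
Hnrnpa1l2-ps2, chr15:22714935-22715234, minus strand: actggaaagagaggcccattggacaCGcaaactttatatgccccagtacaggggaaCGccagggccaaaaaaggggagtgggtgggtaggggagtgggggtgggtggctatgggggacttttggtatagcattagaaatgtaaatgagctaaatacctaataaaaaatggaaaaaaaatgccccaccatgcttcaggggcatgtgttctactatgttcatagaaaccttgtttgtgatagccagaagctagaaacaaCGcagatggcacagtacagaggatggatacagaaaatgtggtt
The capitals are dense in the first 4 sequences, with 28 CpG in Srsf7, 38 in Srsf10, 21 in Hnrnpl and 26 in Srsf12. Hnrnpa1l2-ps2 has 3.

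A gene was counted as marked when a peak overlapped its span plus 1 kb on each side by at least 1 bp. Of the 44 genes, 43 were marked in both lists, and among all protein-coding genes this share was 61.0%. None was marked in Early-B alone, the class of 11.3% of all genes marked in either list, and none in progenitors alone, the class of 2.82%. The remaining gene was Srsf12, while 29.0% of all genes had no peak in either list. All 21 hnRNP genes, all 9 genes of SF3A and SF3B, all 3 U2AF genes and 10 of 11 SR protein genes were therefore marked in both groups of cells.

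Srsf12 encodes an SR-related protein that acts as a splicing repressor and lies at chr4:33208991-33233343. The nearest Early-B peak was 6.23 kb from the gene, 421 bp wide and weak, with a −log10 p of 2.63. The nearest progenitor peak was 11.3 kb away, 5036 bp wide with a −log10 p of 215.33, and it lay at Pnrc1. The promoter printed above is rich in CpG, with an observed over expected ratio of 0.73. Of 3819 genes whose richest promoter window holds 20 to 29 CpG, 89.1% were marked in both lists and 5.29% in neither, so Srsf12 belongs to a small class of unmarked genes with such a promoter.

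The peaks of these genes were wide. The median width of the widest peak per gene was 5578 bp in Early-B and 5262 bp in progenitors, against 3036 bp and 2734 bp over all marked genes. A peak of at least 4 kb was called broad. In Early-B 32 of 43 marked genes had a broad peak (74.4%), against 29.2% of all marked genes. In progenitors 30 of 43 had one (69.8%), against 23.6%. The same 30 genes were broad in both lists, a class that held 19.9% of all genes marked in both. The pair that was broad in Early-B alone was Srsf6, a regulator of alternative exons, at 4024 bp against 3379 bp, and Hnrnpll, described below. On either side of the threshold, U2af1 measured 3942 bp in Early-B, and Sf3a2 measured 4025 bp and Srsf9 3457 bp in progenitors.

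**Figure D1:**
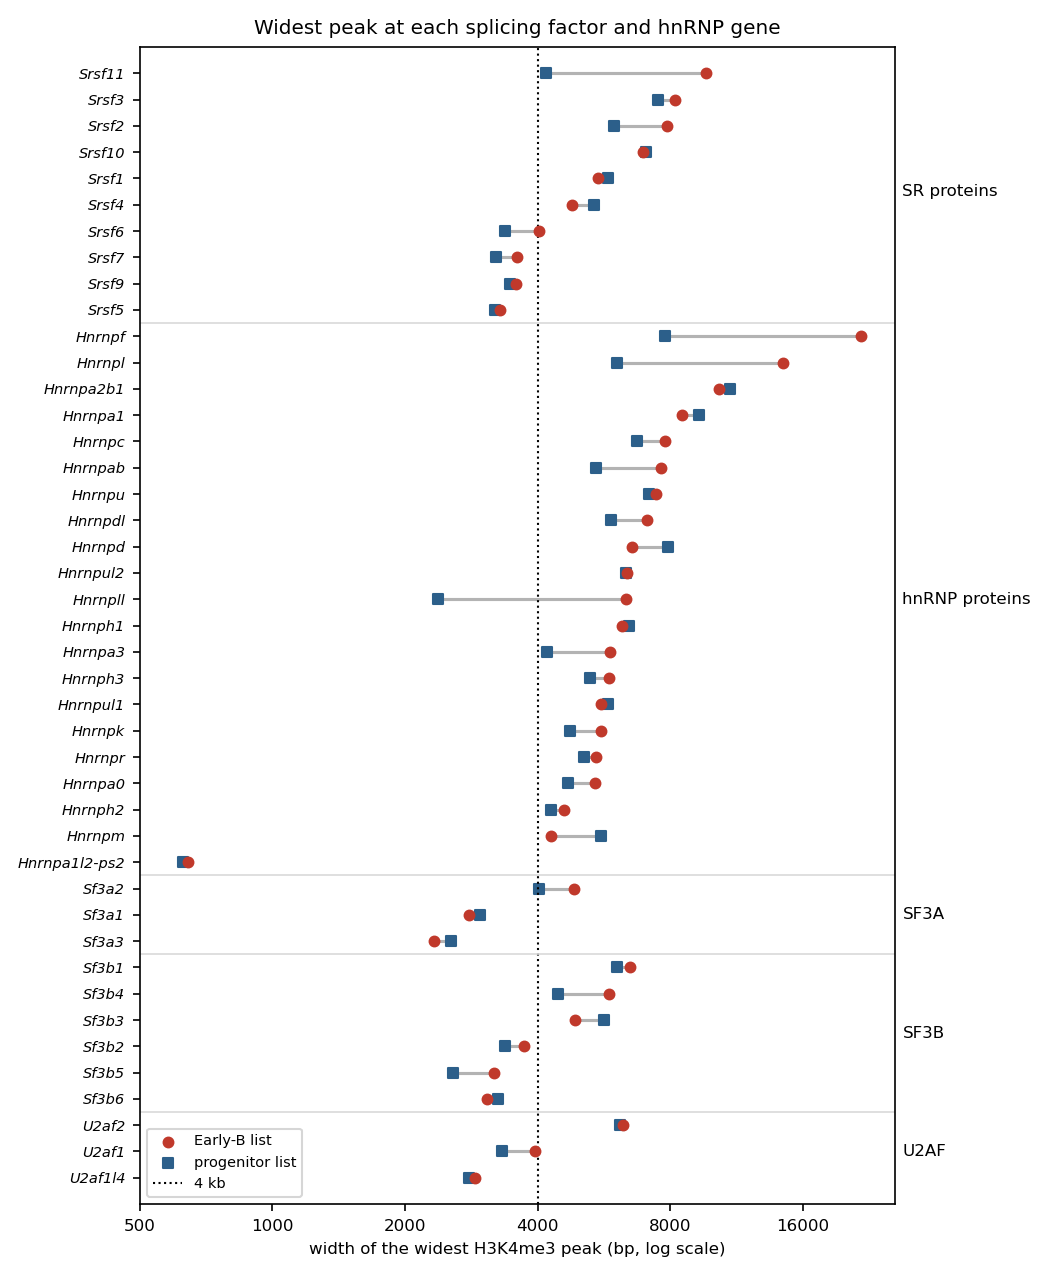
Width of the widest H3K4me3 peak (bp, log scale) at each of the 43 marked genes, grouped by role, in the Early-B list (circles) and the progenitor list (squares), with grey lines joining the values of a gene and a dotted line at 4 kb. Most hnRNP genes lie right of 4 kb in both lists, and Hnrnpf, Hnrnpl, Hnrnpll and Srsf11 have the longest grey lines.

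**Figure D2:**
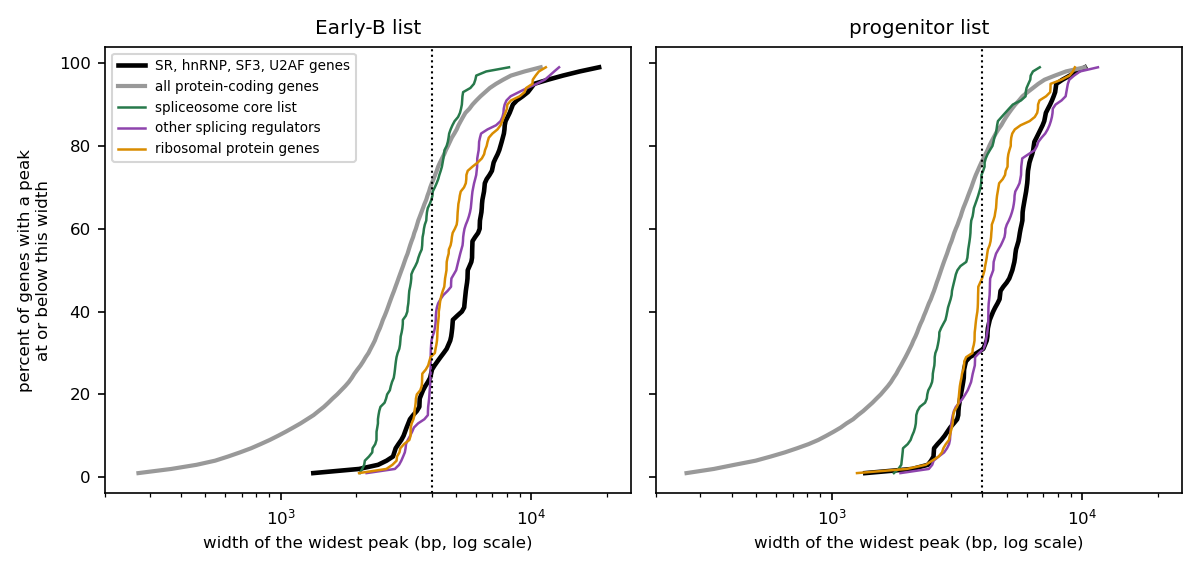
Percent of marked genes (y axis) whose widest peak is at or below a given width (x axis, bp, log scale), in the Early-B list (left) and the progenitor list (right), for the genes described here, all protein-coding genes and 3 other gene lists. The black curve lies right of the grey curve of all genes, and the spliceosome core list lies between them at its midpoint, with medians of 3376 bp in Early-B and 3177.5 bp in progenitors.

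Width differed between the role groups. Of 21 hnRNP genes 20 were broad in Early-B and 19 in progenitors, with median widths of 6337 bp and 5786 bp. Of 10 marked SR protein genes 7 and 6 were broad, with medians of 5131 bp and 4779.5 bp. The core factors were narrower. SF3B had 3 of 6 genes broad in each list (medians 4295.5 bp and 3906 bp). SF3A had 1 of 3 (2799 bp and 2964 bp), and U2AF had 1 of 3 (3942 bp and 3315 bp). No test separates these groups, since genes of 1 list are not replicates.

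Among SR proteins, Srsf3, the smallest of the family and a link between splicing and mRNA export, had a peak of 8212 bp in Early-B and 7513 bp in progenitors. Srsf2, known for its binding to exonic enhancers, had 7852 bp and 5973 bp, and the peak covered the whole gene in both lists. That peak also reached the neighbours Mfsd11 and Mettl23. Srsf1, the founding SR protein, had 5487 bp and 5770 bp, which covered 71.9% and 70.4% of the gene. Srsf7, which also serves in mRNA export, had 3589 bp and 3211 bp, narrow for this family but above the medians of all marked genes. Its peak was among the strongest of all genes. Also narrow for this family were Srsf5 (3294 bp in Early-B, 3198 bp in progenitors) and Srsf9 (3575 bp and 3457 bp). Srsf4 had 4775 bp and 5379 bp.

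Srsf10, which turns from an activator into a repressor when it loses its phosphates, had a peak at each end. The peak over its start measured 5711 bp in Early-B and 5975 bp in progenitors. The peak past its other end, shared with Pnrc2, measured 6955 bp and 7039 bp and was weaker, with a pileup of 91.1 against 135.68 at the start in Early-B and 110.5 against 196.74 in progenitors. The widest peak of this gene was thus not the peak of its own promoter. The same held for Sf3b2 in progenitors, where the widest peak (3367 bp) reached Pacs1 and the peak over the start measured 2853 bp.

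Among the hnRNP A/B genes, Hnrnpa2b1, an RNA-binding protein of nuclear and exported RNA, had 10340 bp in Early-B and 10950 bp in progenitors. The peak was shared with Cbx3, a heterochromatin protein gene next to it. Hnrnpa1, the best known exon silencer of the family, had 8503 bp and 9288 bp, shared with Cbx5, another gene of the same heterochromatin protein family. Hnrnpab had 7616 bp and 5428 bp, Hnrnpa3 5828 bp and 4194 bp, and Hnrnpa0 5389 bp and 4677 bp. The peak of Hnrnpa0 covered its whole span in both lists, as did that of Sf3b5.

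Hnrnpa1l2-ps2 differed from the other marked genes in both lists. It is annotated as protein-coding, lies inside Cdh18, and carries the label of a pseudogene in its symbol. Its peak was 644 bp wide with a pileup of 15.01 in Early-B and 627 bp wide with a pileup of 18.68 in progenitors, near the bottom of each list (percentiles 6.7 and 8.6). Its −log10 p was 3.35 and 4.4. A sequence so close to a family of expressed genes can share reads with them, and no source used here says how such reads were placed, so this peak is uncertain.

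Of the remaining hnRNP genes, Hnrnpc, which binds uridine tracts, had 7802 bp in Early-B and 6736 bp in progenitors. Hnrnpu, a nuclear scaffold protein, had 7418 bp and 7166 bp at its start and a separate peak of 5750 bp and 5335 bp at its 3′ end. Hnrnpk, which binds cytidine-rich RNA, had 5563 bp and 4726 bp. Hnrnpd, a regulator of mRNA decay, and its paralogue Hnrnpdl had 6537 bp and 7088 bp in Early-B, against 7887 bp and 5877 bp in progenitors. Among the genes whose products bind guanine tracts, Hnrnph1 had 6222 bp and 6437 bp, Hnrnph2 4592 bp and 4280 bp, and Hnrnph3 5801 bp and 5262 bp. Hnrnpr had 5435 bp and 5088 bp, Hnrnpul1 5578 bp and 5786 bp, and Hnrnpul2 6367 bp and 6359 bp. Hnrnpm went the other way, with 4291 bp in Early-B and 5575 bp in progenitors, the lowest ratio of all 43 genes (0.77).

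In the U2 particle, Sf3b1, the subunit that grips the branch point and is often mutated in blood cancers, had 6480 bp in Early-B and 6069 bp in progenitors. Sf3b4 had 5810 bp and 4445 bp and Sf3b3 4867 bp and 5654 bp, and both peaks reached a neighbour (Mtmr11 and Cog4). The short gene Sf3b5 had 3177 bp and 2565 bp, Sf3b6 3073 bp and 3258 bp, and Sf3b2 3724 bp and 3367 bp. The SF3A genes had some of the narrowest peaks, with 2799 bp and 2964 bp at Sf3a1 and 2326 bp and 2549 bp at Sf3a3. Sf3a2 was wider (4834 bp and 4025 bp), and its peak overlapped Plekhj1 and came within 1 kb of Dot1l. U2af2, the large subunit that reads the polypyrimidine tract, had 6236 bp and 6166 bp, while U2af1, which reads the AG at the intron end, had 3942 bp and 3315 bp. Its paralogue U2af1l4 had 2883 bp and 2790 bp.

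Most genes had nearly the same width in both lists. The ratio of Early-B to progenitor width had a median of 1.07, against 1.1 over all genes marked in both. The peak was wider in Early-B at 30 of 43 genes (69.8%), close to the 66.0% of all genes. This direction depends on scaling. The median width of peaks shared by the lists was 2122 bp in Early-B and 1664 bp in progenitors. After division by it 8 of 43 were wider in Early-B and the median ratio was 0.84. The scaling was not applied to all genes, so the scaled values cannot be called particular to the genes described here. A ratio of at least 1.5 in favour of Early-B occurred at 4 genes (9.3%), against 19.2% of all genes. A ratio of at least 1.5 in favour of progenitors occurred at none, against 6.02%, both before scaling. After the scaling it occurred at Hnrnpd and Hnrnpm, with no scaled share of all genes to set beside them.

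The 4 genes with wider Early-B peaks were Hnrnpf, Hnrnpll, Hnrnpl and Srsf11. Hnrnpf (chr6:117900340-117925622), whose product binds guanine tracts, had 1 Early-B peak of 21680 bp, the widest here. Progenitors had 3 peaks of 3051 bp, 7791 bp and 7542 bp in the same stretch, and the summed lengths of 21680 bp and 18384 bp differed by a ratio of 1.18. The widest peak also reached 4933440N22Rik in both lists, so the mark cannot be given to Hnrnpf alone. Hnrnpf has 4 RefSeq starts. The first progenitor peak covered the start at 117900340, the next covered those at 117906782 and 117907804, and the last covered that at 117917294, while the Early-B peak covered all 4. The starts hold 7, 24, 37 and 32 CpG in that order.

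Srsf11 (chr3:158010915-158036667), an SR-related protein that contacts other SR proteins, had the same arrangement. Its single Early-B peak of 9652 bp met 2 progenitor peaks of 4180 bp and 3559 bp. That Early-B peak also reached Lrrc40, so it cannot be given to Srsf11 alone. Each progenitor peak covered 1 of its 2 starts, at 158031748 and 158036606, and the ratio of summed lengths was 1.25. At these 2 genes the difference in the widest peak came with a join of peaks that the progenitor list keeps apart, and whether the joins reflect signal or the calling of peaks was not tested.

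Hnrnpl (chr7:28808546-28822268), which binds CA repeats and represses exons, kept its difference when all peaks were summed. Its Early-B peak of 14447 bp covered 98.7% of the gene, while progenitor peaks covered 45.6%. Progenitors had 6045 bp at the start and a weak peak of 1029 bp near the other end, with a −log10 p of 1.56. The Early-B peak ranked low by pileup (93.8, percentile 44.9) and the progenitor peak high (195.22, percentile 83.5). No source used here says whether the pileup of a wide peak is a mean or a maximum.

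Hnrnpll (chr17:80029487-80062268), a paralogue of Hnrnpl known for exon skipping in the Ptprc (CD45) transcript of lymphocytes, had 1 peak in each list. It measured 6337 bp in Early-B and 2378 bp in progenitors, a ratio of 2.66. The Early-B peak ran further at both edges, from 28979 to 35315 bp after the lower end of the gene against 31251 to 33628 bp. Its pileup ranked at percentile 67.7 in Early-B and 56.7 in progenitors. The peak also reached 4933407O12Rik in both lists, so the mark cannot be given to Hnrnpll alone.

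**Figure D3:**
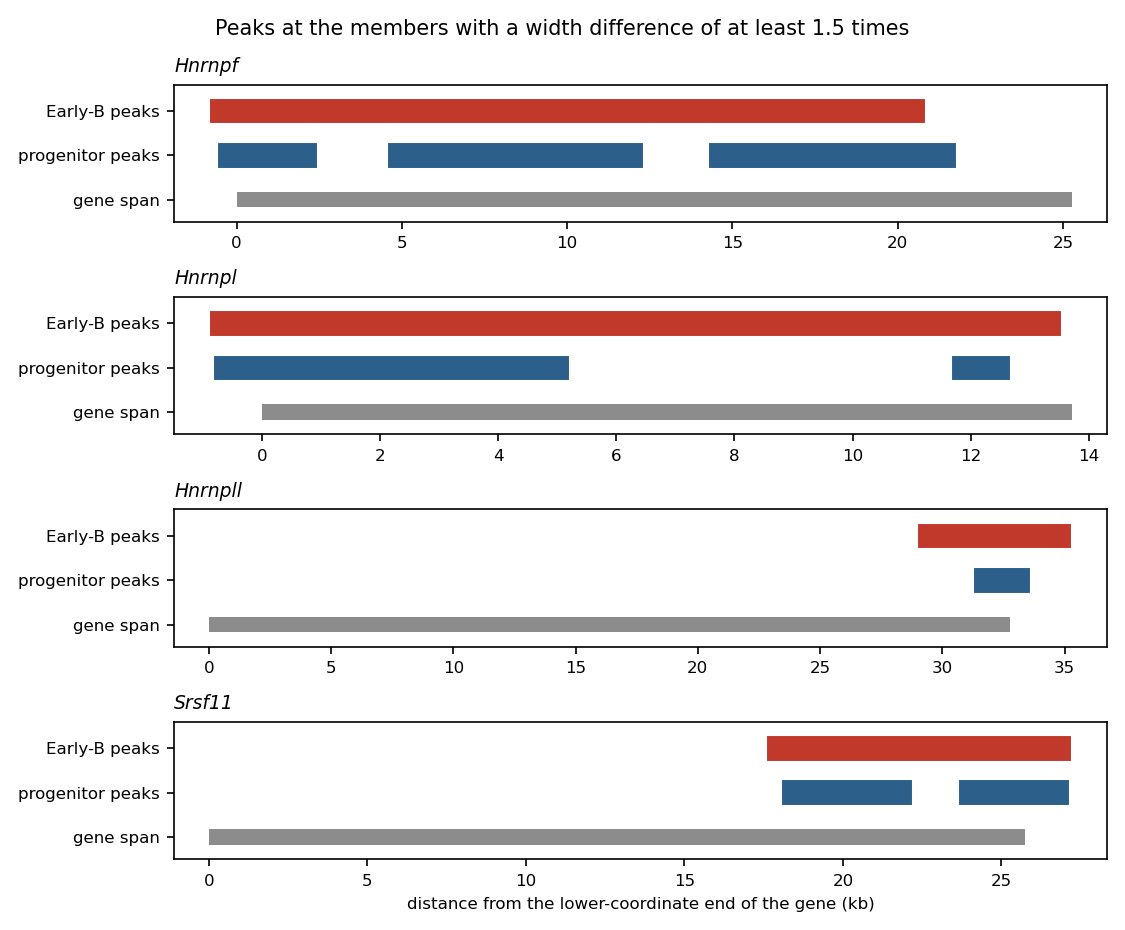
Peaks at the 4 genes whose widest peak differed by at least 1.5 times, drawn as bars along the distance from the lower-coordinate end of the gene (kb), with the Early-B list on top, the progenitor list in the middle and the gene span in grey. The Early-B bar of Hnrnpf spans 3 progenitor bars and that of Srsf11 spans 2, while Hnrnpll has 1 bar in each list.

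Peaks of the Early-B list that met 2 or more progenitor peaks occurred at 4 of 43 genes (9.3%), against 4.40% of all genes marked in both. They were Hnrnpf, Srsf11, Hnrnpl and Hnrnpab. The reverse, 1 progenitor peak meeting 2 or more Early-B peaks, occurred at none, against 2.15%. Peaks private to a list were counted as well. Of 51 Early-B peaks in the windows of these genes 3 met no progenitor peak (at Srsf1, Sf3b1 and Hnrnpm), against 34.1% of such peaks over all coding genes, with −log10 p from 1.17 to 1.35. Of 56 progenitor peaks 4 met no Early-B peak (at Srsf3, Srsf4, Srsf9 and Sf3b3), against 19.3%, with −log10 p from 1.26 to 2.01. All 7 of these weak peaks had a q above 0.05.

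The widest peak reached the window of another protein-coding gene at 25 of 43 genes (58.1%) in Early-B, against 28.4% of all genes, and at 25 of 43 in progenitors, against 29.4%. It did so at 15 of 21 hnRNP genes in each list, and at 4 of 10 SR protein genes in Early-B and 3 of 10 in progenitors. Examples were Cbx3 at Hnrnpa2b1, Gemin6 at Srsf7, Rmi1 at Hnrnpk and Axl at Hnrnpul1. A wide peak reaches a neighbour more easily than a narrow one, so these shares are not independent of width.

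The reach of the peak on each side of the start could be measured at 37 genes with a RefSeq start that a peak covered in both lists. Downstream, the median reach was 3455 bp in Early-B and 3532 bp in progenitors, against 1903 bp and 1783 bp over all such genes. Upstream it was 1832 bp and 1331 bp, against 1166 bp and 926 bp. The downstream side was the longer one at 33 of 37 genes in each list (89.2%), against 76.3% of all genes in Early-B and 79.8% in progenitors. The larger part of most of these peaks therefore lay downstream of the measured start, as it did at most such genes. Downstream reach was not limited to the gene, since the peaks of Srsf2 and Hnrnpa0 ran past its end.

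Between the lists, the peak reached further upstream in Early-B at 33 of 37 genes (89.2%), against 68.8% of all genes, with a median difference of 256 bp. It reached further downstream at 17 of 37 (45.9%), against 56.4%, with a median difference of −15 bp. After division by the median width of shared peaks, the upstream count turned to 15 of 37 and the downstream count fell to 4 of 37. This scaling was not applied to all genes, so the scaled counts cannot be set against a share of all genes. The upstream gain was seen at Hnrnpc (3369 bp against 1104 bp) and Hnrnpab (3159 bp against 958 bp). The peaks of both also reached a neighbouring gene, Rpgrip1 and Phykpl. The Early-B peak of Hnrnpab met 2 progenitor peaks, and only 1 of them lay in the window of the gene. The other lay on the upstream side, so part of this added reach held a separate progenitor peak. The downstream side was shorter in Early-B at Hnrnpd (5148 bp against 6610 bp) and Hnrnpm (3562 bp against 4935 bp).

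**Figure D4:**
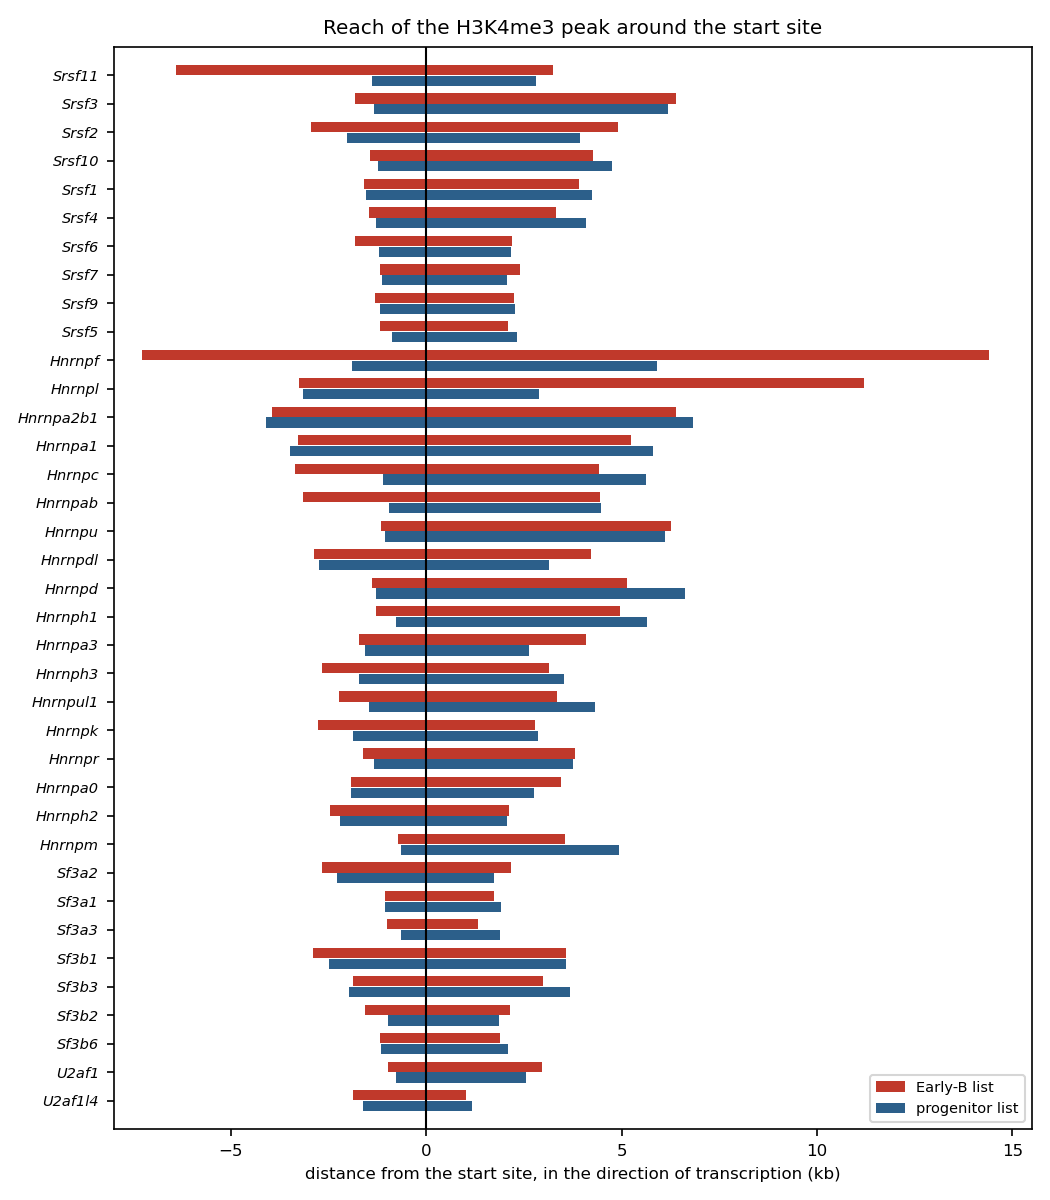
Reach of the H3K4me3 peak around the start site (0 on the x axis, kb, positive in the direction of transcription) at 37 genes, with Early-B bars above progenitor bars. Bars extend further right than left at 33 genes in each list, and the Early-B bar starts further left at 33 genes. At a gene with several starts, the covered start with the widest peaks is shown.

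Peaks were also strong within their list. In bulk chromatin the share of cells that carry the mark and its level per cell cannot be told apart. Since pileup is on a scale of its own in each list, each gene's strongest peak (by −log10 p) was ranked among all marked protein-coding genes of that list. The median percentile was 84.6 in Early-B (pileup 154.48, against a median of 104.41 over all genes) and 83.5 in progenitors (195.22 against 146.09). The SR protein genes ranked highest, with median percentiles of 88.95 and 90.3. The hnRNP genes, which had the widest peaks, had median percentiles of 73.0 in Early-B and 83.0 in progenitors. SF3B had 86.2 and 73.6, SF3A 79.6 and 73.5, and U2AF 76.5 and 80.8.

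The strongest peaks in Early-B were at Hnrnpul2, a paralogue of Hnrnpu, with a pileup of 220.05 (percentile 99.5), Srsf7 with 209.54 (99.1) and Hnrnpk with 194.06 (97.9). In progenitors they were at Srsf7 with 280.39 (99.8), Hnrnpk with 258.13 (99.4) and Sf3a2 with 257.27 (99.4). Srsf7 and Hnrnpk thus stood near the top of both lists. After Hnrnpa1l2-ps2, the weakest was Hnrnph2 on the X chromosome, with 81.26 (39.8) in Early-B and 120.25 (38.2) in progenitors. Hnrnpl followed in Early-B with 93.8. Hnrnpc followed in progenitors with 136.98 (45.2), and it had 101.99 (48.9) in Early-B. Hnrnpa1 and Hnrnpc combined a very wide peak with a middling pileup, the former with 105.39 (50.4) and 142.83 (48.3).

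The genes named next ranked above the middle of both lists, though Sf3a1 only slightly so in progenitors. Srsf1 had a pileup of 170.7 in Early-B and 201.8 in progenitors (percentiles 92.6 and 86.9), Srsf2 165.89 and 231.8 (90.6 and 96.8), and Srsf3 159.53 and 220.59 (87.5 and 94.4). Hnrnpu had 173.74 and 235.19 (93.6 and 97.5) and Hnrnpa2b1 154.25 and 198.05 (84.5 and 85.0). The branch point and 3′ splice site factors varied among themselves. Sf3b3 stood near the top of both lists, with 175.44 in Early-B and 221.37 in progenitors (94.1 and 94.6). Sf3b1 had 138.29 and 172.14 (72.7 and 67.2), Sf3a1 126.9 and 152.35 (64.1 and 53.9) and Sf3b4 166.07 and 164.85 (90.7 and 61.9). U2af1 had 161.79 and 191.1 (88.7 and 80.8), and U2af2 132.67 and 179.57 (68.3 and 72.7).

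**Figure D5:**
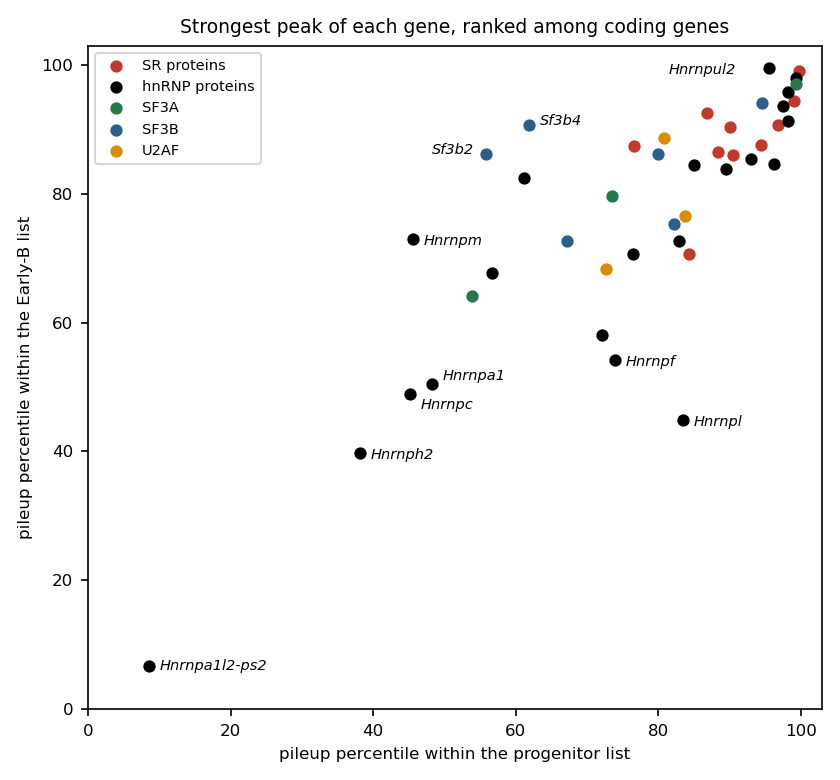
Percentile of each gene's strongest peak by pileup among all marked protein-coding genes, in the progenitor list (x axis) and the Early-B list (y axis), for 43 genes coloured by role. Most points lie above 60 on both axes, Hnrnpl lies at 83.5 on the x axis and 44.9 on the y axis, and Hnrnpa1l2-ps2 lies near the origin.

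The promoters were rich in CpG. The 53 windows held a median of 27 CpG (3 to 52), against 13 over 21263 windows of all protein-coding genes. Their GC content had a median of 65.0% against 56.3%, and the observed over expected CpG ratio 0.97 against 0.57. The extremes were Hnrnpa0 with 52 CpG and Hnrnpa1l2-ps2 with 3. Windows of the same gene can overlap, so they are not independent, and promoters marked in both lists are commonly CpG rich: 91.3% of genes with at least 30 CpG were marked in both, against 26.2% of those with 9 or fewer.

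Exact matches to 8 short motifs were counted on both strands of these windows. GGGCGG, bound by SP factors, was in 75.5% of the 53 windows and in 46.2% of all windows. CCGGAAGT, bound by ETS factors, was in 18.9% and 5.15%. CCAAT, bound by NF-Y, was in 50.9% and 38.2%, with 4 matches in the Hnrnpl window printed above. GCATGCGC, bound by NRF1, was in 7.55% and 3.52%, and Srsf7 held 1 match. CAAGATGGC, bound by YY1, was in 3.77% and 1.43%. The TATA box TATAAA (11.3% and 12.6%), the E box CACGTG (9.43% and 7.84%) and CCCNNGGG, the core letters bound by EBF1 (15.1% and 15.6%), were about as common as in all windows. The EBF1 letters occurred at Hnrnpa1, Hnrnpf, Hnrnph2, Hnrnph3, Hnrnpr, Srsf6, Srsf9 and Srsf11. These are matches of letters only, and the SP, ETS, NRF1 and E box letters contain CpG, which is itself more frequent here.

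Other genes of the splicing pathway were set beside these by fixed lists. All 72 genes of a spliceosome core list (Sm and LSm proteins, the tri-snRNP, helicases and the exon junction complex) were marked in both lists. Their peaks were narrower, with medians of 3376 bp in Early-B and 3177.5 bp in progenitors, and 24 (33.3%) and 19 (26.4%) were broad. All 49 genes of a list of other splicing regulators and kinases were marked in both lists as well, and 67.3% and 69.4% were broad, with medians of 5016 bp and 4415 bp. Breadth was thus more common among the regulators than among the core factors in both lists, as it was within the SR and hnRNP genes against SF3A, SF3B and U2AF. These differences are descriptions without a test.

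A fixed list of tissue-restricted splicing regulators, many of them used mainly in brain, muscle or epithelium, gave another picture. Of its 24 genes, 17 were marked in both lists, 3 in Early-B alone, 1 in progenitors alone and 3 in neither. Median widths were 1512.5 bp in Early-B and 1433 bp in progenitors. The 3 genes broad in Early-B were Rbm38 (8096 bp), Mbnl3 (4549 bp) and Ptbp2 (4219 bp). Ptbp2 is also in the list of other splicing regulators. Khdrbs2 (2040 bp, −log10 p 14.29), Khdrbs3 (1438 bp, 14.44) and Srrm4 (212 bp, 1.68) had their widest peak in Early-B alone, and the neuronal factor Nova1 (1415 bp, 9.53) had one in progenitors alone. Celf3, Elavl4 and Rbm24 had no peak. With peaks limited to a −log10 p of at least 10, 5 of the 24 genes were marked in both lists.

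For comparison with other housekeeping genes, chosen by symbol, 81 of 83 cytosolic ribosomal protein genes were marked in both lists. Of these 70.4% were broad in Early-B and 51.9% in progenitors, with medians of 4589 bp and 4077 bp. Of 39 proteasome subunit genes 37 were marked in both lists, and 32.4% and 18.9% were broad, with medians of 3390 bp and 2925 bp. The SR, hnRNP, SF3 and U2AF genes had the widest median of the 3 sets in each list, and their median gene length of 11670 bp was between those of the ribosomal protein genes (3164 bp) and the proteasome genes (12293 bp).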

How the data were processed

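H3K4me3 was profiled by ChIP-seq. The submitters' processing notes name the builds GRCh38 and mm10 and the tools MACS 1.4.3 and Bowtie 1.1.2. The sources used here do not give pooling of replicates, use of input or settings. The group of each list was read from its name. Per the file headers, the authors deposited each peak's position, its pileup (a coverage signal) and a fold enrichment. The deposited −log10 p and −log10 q were read from values and order, since their headers are damaged. These are the authors' values and were used only to rank or filter within a list.

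Peaks, counted from 1, were joined to RefSeq genes of GRCm38.p6 with Python 3.11.15, numpy 2.4.6, pandas 2.3.3 and matplotlib 3.10.9, using a window of 1 kb and an overlap of 1 bp. Of 145 entries in 3 splicing lists, 145 matched. No test was possible with 1 list per group. The class and the peak width of a gene were tested on simulated peaks, with at most 1 per list at genes far from other coding genes. The other steps were not tested in this way.

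Members and lists were chosen with earlier results of these data known. Named in full by rule were Srsf1, Srsf2, Srsf3, Srsf7, Hnrnpa1, Hnrnpa2b1, Hnrnpc, Hnrnpk, Hnrnpl, Hnrnpll, Hnrnpu, Sf3a1, Sf3b1, Sf3b4, U2af1 and U2af2, genes not in both lists, genes with a width ratio of at least 1.5, and the 3 extremes of width and pileup per list. Other members were named to account for all. The ribosomal and proteasome lists were added after the first values were seen. Samples of other assays and of Early-T cells were not used here.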

Additional observations from a re-analysis of the deposited data

How the results depend on the processing

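No paired analysis was possible because each group had 1 peak list. Of the counts and medians of the comparisons, 84 values under an alternative stayed within 1.5 times and 15 moved. Many of the values that stayed were counts of 0 or of nearly all genes. The tally therefore says little about how stable the results are. The ratios of Hnrnpf, Hnrnpl, Hnrnpll and Srsf11 kept their direction. With q of at most 0.01, Hnrnpa1l2-ps2 was marked in progenitors alone (1 gene). With −log10 p of at least 10, Srpk3 was marked in Early-B alone (1 gene of the regulators), and the tissue-restricted list had 5 genes in both lists and 6 in progenitors alone. Summed peak lengths left 2 genes (Hnrnpl and Hnrnpll) at least 1.5 times wider in Early-B, with ratios of 1.25 at Srsf11 and 1.18 at Hnrnpf. After division by the median width of shared peaks, 8 genes were wider in Early-B and the median ratio was 0.84. The same scaling left 2 (Hnrnpd and Hnrnpm) at least 1.5 times wider in progenitors. It was not applied to all genes. Among the 17 genes whose widest peak reached no other coding gene, 12 were wider in Early-B, 1 (Hnrnpl) by at least 1.5 times, and 11 (64.7%) and 10 (58.8%) were broad in Early-B and progenitors, an alternative chosen for the widths after seeing the data. This restriction was not applied to all genes either, so its counts have no share of all genes to set beside them. Private peaks fell to 1 in Early-B when a gap of 1 kb counted as shared, and to 0 in each list with −log10 p of at least 10. Counts over the 17 genes and counts at a stricter threshold come from fewer genes or peaks, and the 1 kb gap is a looser definition of sharing. The cause of the other changes was not tested. Without read counts, what depth limits is unknown, and narrow or absent peaks can be peaks not detectable at this depth.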
